A study of Mus musculus with 6 samples.

Results

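The genes described here are 34 members of glycolysis, the pentose phosphate pathway and the hypoxia response, taken by name from a list and looked up among the 27179 genes of a read count table. All 34 were in the table, and 31 passed a filter on low counts (an average level of at least 1 CPM, the count scaled to a fixed library total). The count table came from germinal center (GC) B cells of C57BL/6 mice that were wild-type (WT) or lacked the receptor for the cytokine IL-21 (Il21r-/-), and asked which transcripts differ in GC B cells when IL-21 cannot be sensed. All mice, of both genotypes, had been immunized intraperitoneally with NP-KLH in alum, and NP-binding IgG1+ cells that were B220+ and CD38- and lacked CD138, IgM, IgD and Gr1 were sorted from the spleen on day 7, 10 or 14. There was 1 library per genotype and day, so each genotype had 3 libraries with no replicate within a day. The study matched mice by age and sex and used both sexes, and gives one range of ages, from young to mature adults, for all its experiments together. The labels tie each library to its own mouse, whereas the day 7 sort is elsewhere described with 3 mice of each genotype, and the methods count several mice per genotype over separate immunizations and say that nearly all experiments used irradiated Ly5.1 hosts carrying transplanted marrow, in which the other tissues keep the host's genotype. All 6 libraries held both *Xist* counts (at least 427) and counts on genes of the Y chromosome (at least 816). The latter figure leaves out *Gapdh-ps15*, a Y-chromosome copy near-identical to *Gapdh* that is described below. The sources thus differ on whether a library is 1 mouse or a pool, and p-values measure the spread between these libraries.

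Glycolysis splits glucose into pyruvate in a chain of cytosolic enzymes, and lactate dehydrogenase turns pyruvate into lactate, which restores the NAD+ that the chain consumes. The pentose phosphate pathway branches off at glucose 6-phosphate and supplies NADPH and ribose for nucleotides, both of which dividing cells need. HIF-1, the transcription factor that accumulates when oxygen is low, switches on many of these enzymes together with glucose transporters and pyruvate dehydrogenase kinases, and GC B cells divide fast in a compartment with poorly oxygenated regions.

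The libraries held 21353438 to 27435124 counts. *Il21r* itself gave 345.8, 263.0 and 246.6 CPM in WT on days 7, 10 and 14 and 105.8, 127.6 and 112.7 CPM in Il21r-/-, 2.45-fold less over the 3 days (log2 fold change, WT over Il21r-/-, 1.29, SE 0.13, edgeR adjusted p = 0.00137). Reads on the receptor gene were therefore lower in every library labelled Il21r-/-, but not absent. All 12 listed GC B cell markers were detected, with summed levels of 10196.9 to 12144.2 CPM in WT and 11016.9 to 13786.3 CPM in Il21r-/-. The 7 plasma cell markers summed to 2754.2 to 2934.7 CPM in WT and 3024.7 to 3839.0 CPM in Il21r-/-, mostly from *Jchain*, *Xbp1* and *Slamf7*. Their defining members were low and did not follow the sum: *Prdm1* gave 1.39, 1.83 and 1.59 CPM in WT on days 7, 10 and 14 and 0.262, 0.61 and 0.682 CPM in Il21r-/-, *Sdc1* 0.733, 0.854 and 0.843 CPM and 0.436, 0.495 and 0.361 CPM, and *Tnfrsf17* at most 0.691 CPM. The 10 T cell markers summed to 1.5 to 2.05 CPM in WT and 2.23 to 2.7 CPM in Il21r-/-, each under 1 CPM in every library. Sums of the 10 myeloid markers (8.5 to 14.5 against 12.6 to 20.6 CPM, *Mpo* at 0), the 9 of 10 erythroid and platelet markers in the table (10.4 to 19.2 against 5.14 to 34.1 CPM) and the 8 stromal and endothelial markers (24.4 to 50.4 against 36.8 to 66.7 CPM, with *Col1a1*, *Cxcl13*, *Ccl21a* and *Lyve1* at 0) overlapped between the genotypes. Most of the stromal and endothelial sum was *Pecam1*, with 49.9, 32.8 and 24 CPM in WT on days 7, 10 and 14. In Il21r-/- *Pecam1* was higher on each day, at 65.5, 58.1 and 36.3 CPM, though the groups overlapped. The plasma cell and T cell sums were higher in all 3 Il21r-/- libraries, and *Prdm1* and *Sdc1* were higher in all 3 WT libraries. The part of any of these markers in the differences below was not tested.

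Most of the chain was abundantly transcribed. Compared per length, as reads scaled by library size and gene length (RPKM), *Ldha* had the highest mean of the members' own counts over the 6 libraries, 461.9 RPKM (358.3 to 562.0), followed by *Aldoa* at 393.5 (372.7 to 423.6), *Taldo1* at 375.4 (340.3 to 426.9) and *Pkm* at 338.5 (294.4 to 375.4). The ranges of these neighbours overlapped, and the order ignores reads placed on near-identical copies: with those added, *Gapdh* stood at 641.9 RPKM (571.2 to 717.2), above *Ldha*, and *Eno1* at 364.4 RPKM (292.2 to 434.1), near *Aldoa*. *Tpi1* (264.6 RPKM), *Pgam1* (234.7), *Pgk1* (217.0), *Gpi1* (182.8), *Tkt* (163.4) and *Pgd* (132.7) came next. The 3 members that did not pass the filter were *Ldhb* with 0 or 1 count per library, *Egln3*, an oxygen-sensing prolyl hydroxylase, with 0 to 5 counts, and *Vegfa*, the angiogenic growth factor and classic HIF target, with 0 to 2 counts.

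The glucose transporter gene *Slc2a3* was 1.59-fold higher in Il21r-/-, whichever of 2 fits was used. When day was a block, *Aldoc* was also higher in Il21r-/-, by 1.24-fold, and *Pfkp*, *Tpi1*, *Pgam1*, *Eno1*, *Pkm*, *Ldha*, *Slc16a1*, *Pdk3*, *Hif1a*, *Egln1* and *Pgd* were higher in WT, by 1.16- to 1.33-fold. How many members passed the test depended on how the day of sampling entered the fit. With day as a linear covariate, the quasi-likelihood test of edgeR at an adjusted p under 0.05 called 1 of the 31 members, *Slc2a3*, against 5.92% of the 11005 genes tested (1.40% higher in WT and 4.52% in Il21r-/-), and 11 members (35.5%) had an unadjusted p under 0.05, against 21.4% of all genes. With day as a block, which compares the libraries of the same day with each other, 13 of 31 (41.9%) were called, against 22.9% of all genes, 11 of them higher in WT (35.5%, against 9.33% of all genes) and 2 higher in Il21r-/- (6.45%, against 13.6%). At an unadjusted p under 0.05 the blocked fit had 14 members (45.2%), against 33.6% of all genes, and the counts by role below are to be read against these shares. The members were chosen with earlier results of these data known, and the shares over all genes are not matched for level. Differences between these shares, here and below, are therefore descriptions and were not tested. Without 1 library the linear count was 0 (without either day 14 library) to 10 (without the day 10 Il21r-/- library). Of all genes, 132 and 284 were called without the day 14 WT and Il21r-/- libraries, and 2165 without the day 10 Il21r-/- library. The blocked count was 5 to 7 whichever library was left out, with the day 14 WT library giving the lowest. The blocked count of all genes ran from 1015 without that library to 2172 without the day 7 WT library. In the blocked fit, leaving out 1 library also removes the genotype comparison of its day. The runs without either library of a day are therefore not separate checks. The median log2 fold change of the members was 0.11 and that of all genes -0.01. In these bulk libraries, fewer cells of a type and less RNA per cell cannot be told apart.

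**Figure D1:**
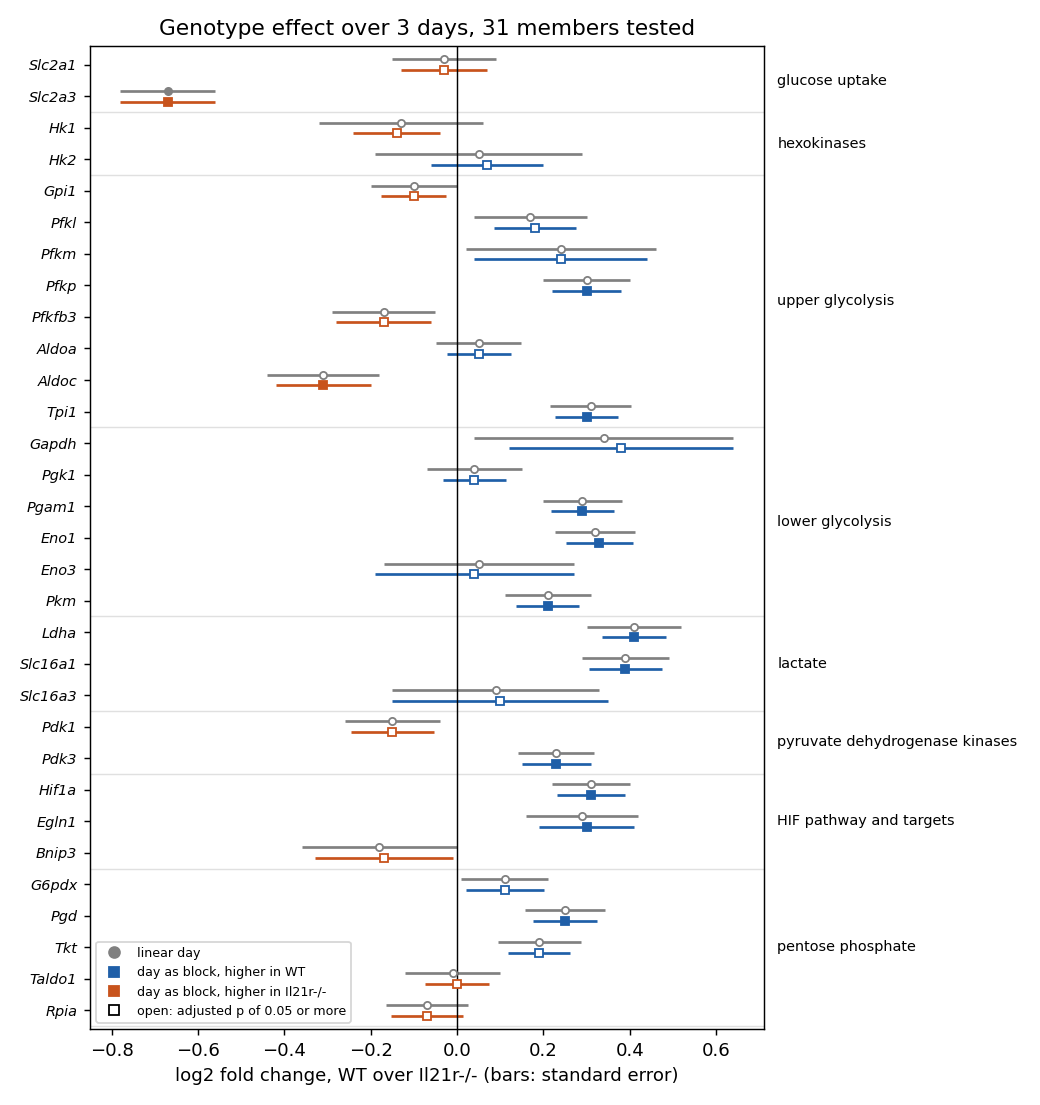
Log2 fold change of WT over Il21r-/- (x axis) for the 31 members tested, grouped by role, with bars of 1 standard error; circles are the fit with day as a linear covariate, squares the fit with day as a block, and filled symbols have an adjusted p under 0.05. The filled symbols on the left are *Slc2a3* (-0.67) and *Aldoc* (-0.31), and those on the right run from *Pkm* (0.21) to *Ldha* (0.41).

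Irrespective of any fit, the 3 WT libraries lay above all 3 Il21r-/- libraries for 11 of the 31 members (35.5%, against 8.33% of all genes), the Il21r-/- libraries lay above for 1 (3.23%, against 10.0%), and the groups overlapped for the other 19. Read day by day, 13 members were higher in WT on all 3 days (41.9%, against 25.4% of all genes) and 5 were higher in Il21r-/- on all 3 days (16.1%, against 27.9%).

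**Figure D2:**
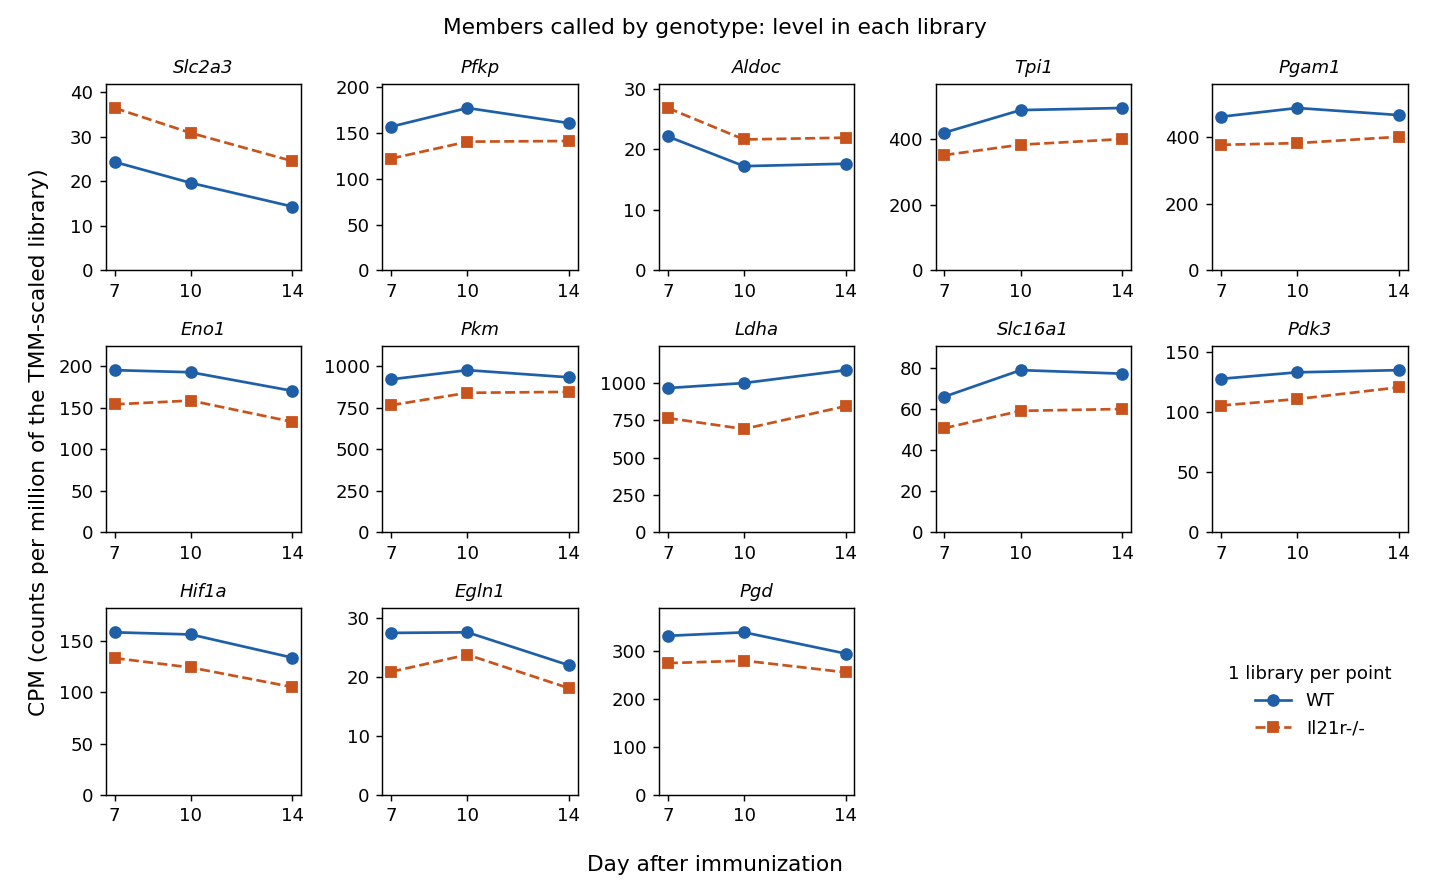
Level in CPM (y axis, from 0) against the day after immunization (x axis) of the 13 members called with day as a block, 1 library per point, WT as blue circles and Il21r-/- as orange squares. WT lies above Il21r-/- on each day in 11 panels and below it in those of *Slc2a3* and *Aldoc*.

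The sequence before the transcription start is shown for members of several roles that were higher in WT with day as a block, because 2 kinds of motif can be read in it: the core of the hypoxia response element, spelled ACGTG and in its other common form GCGTG, and the E-box with the letters CACGTG, which MYC-type factors bind. Each run is the 250 bases before a start in RefSeq (GRCm38.p6), 5′ to 3′ on the gene's strand, with capitals marking any of these motifs on either strand, so that the core on the other strand reads CACGT and its other form there reads CACGC. The E-box overlaps the core, so each E-box is counted under both. They lie at chr7:46845554-46845803 (+, *Ldha*), chr3:104638414-104638663 (+, *Slc16a1*), chr12:73907617-73907866 (+, *Hif1a*), chr19:41911621-41911870 (+, *Pgam1*) and chr6:124814159-124814408 (-, *Tpi1*, shown as a start with none of the motifs).
Ldha: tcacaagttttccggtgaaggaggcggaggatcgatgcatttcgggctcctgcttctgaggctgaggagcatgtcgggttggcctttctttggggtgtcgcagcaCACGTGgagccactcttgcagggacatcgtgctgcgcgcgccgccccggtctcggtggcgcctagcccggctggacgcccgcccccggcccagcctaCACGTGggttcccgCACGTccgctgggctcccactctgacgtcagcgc
Slc16a1: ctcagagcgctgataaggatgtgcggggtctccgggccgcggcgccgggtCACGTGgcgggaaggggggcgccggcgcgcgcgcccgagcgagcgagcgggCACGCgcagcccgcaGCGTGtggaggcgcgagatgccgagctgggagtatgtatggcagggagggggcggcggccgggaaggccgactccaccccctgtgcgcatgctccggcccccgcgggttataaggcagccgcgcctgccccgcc
Hif1a: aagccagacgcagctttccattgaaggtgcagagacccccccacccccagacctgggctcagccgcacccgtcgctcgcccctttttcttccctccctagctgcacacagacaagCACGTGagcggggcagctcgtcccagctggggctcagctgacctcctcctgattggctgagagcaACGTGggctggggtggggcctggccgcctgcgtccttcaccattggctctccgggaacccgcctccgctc
Pgam1: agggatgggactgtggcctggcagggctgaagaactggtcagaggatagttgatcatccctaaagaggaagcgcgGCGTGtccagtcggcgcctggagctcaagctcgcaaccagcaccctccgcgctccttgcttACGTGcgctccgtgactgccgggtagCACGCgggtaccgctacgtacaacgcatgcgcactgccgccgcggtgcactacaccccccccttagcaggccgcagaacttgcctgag
Tpi1: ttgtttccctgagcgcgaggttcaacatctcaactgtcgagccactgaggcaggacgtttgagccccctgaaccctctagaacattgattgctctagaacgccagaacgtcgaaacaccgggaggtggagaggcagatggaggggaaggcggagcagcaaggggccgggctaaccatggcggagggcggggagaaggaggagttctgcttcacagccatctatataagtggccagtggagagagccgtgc

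Of the 34 members, 33 had 48 annotated starts in this table, the exception being *Slc2a3*. ACGTG was found before 20 of the 48 starts (41.7%), GCGTG before 28 (58.3%), either before 39 (81.2%) and CACGTG before 6 (12.5%). Among the 10781 starts that could be linked to genes tested, the shares were 22.4%, 45.9%, 57.4% and 8.65%, and among all 32851 starts 16.6%, 28.2%, 38.6% and 6.02%, while the median GC content was 60.4% for member starts, 60% for starts of genes tested and 52.4% for all starts. The CACGTG letters occurred before a start of *Ldha*, which had 2, and of *Slc16a1*, *Hif1a*, *Bnip3*, *Pfkfb3* and *Pfkm*. The first 3 were higher in WT with day as a block and the others did not pass either test. The other members higher in WT with day as a block had no CACGTG before any start. These were *Pfkp*, *Tpi1*, *Pgam1*, *Eno1*, *Pkm*, *Pdk3*, *Egln1* and *Pgd*, of which only *Pgam1* and *Tpi1* are shown above. These matches describe letters in a window and were not tested for binding.

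Glucose enters B cells through facilitative transporters, and this first step held the one member that was called in both fits. *Slc2a3*, which encodes the high-affinity transporter GLUT3, gave 24.3, 19.6 and 14.3 CPM in WT on days 7, 10 and 14 and 36.4, 30.8 and 24.5 CPM in Il21r-/-. All 3 Il21r-/- libraries lay above all 3 WT libraries, the lowest of the former only just above the highest of the latter. The level was 1.59-fold higher in Il21r-/- (log2 fold change, WT over Il21r-/-, -0.67, SE 0.11, edgeR adjusted p = 0.0104 with linear day and 1.85e-05 with day as a block). With linear day the call was lost without the day 14 WT library (adjusted p = 0.137) or the day 14 Il21r-/- library (adjusted p = 0.0616), and with day as a block it held without each library in turn. *Slc2a1*, for the widely used transporter GLUT1, gave 23.1 to 34 CPM in WT and 25.7 to 32.6 CPM in Il21r-/-, which overlapped (log2 fold change -0.03, SE 0.12, edgeR adjusted p = 0.919). Per length, *Slc2a3* therefore made up 28.2% to 31.8% of the summed RPKM of the pair in WT and 38.2% to 42% in Il21r-/-, and the ranges did not overlap.

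Hexokinases trap glucose in the cell by phosphorylating it. *Hk1* gave 22.1 to 33.2 CPM in WT and 24.7 to 33.4 CPM in Il21r-/-, and *Hk2*, the isoform most often induced in activated and tumour cells, 8.72 to 14.4 and 6.94 to 14.9 CPM. Neither passed the test in either fit (0 of 2 also at an unadjusted p under 0.05), with log2 fold changes of -0.13 (SE 0.19) and 0.05 (SE 0.24) with linear day. Both were higher on day 10 than on day 7 in both genotypes. *Hk1* supplied 68.2% to 82.5% of the hexokinase RPKM.

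Of the 8 members from glucose 6-phosphate to the triose phosphates, 2 were higher in WT and 1 in Il21r-/- with day as a block, and none passed with linear day (3 at an unadjusted p under 0.05). *Pfkp*, the platelet-type phosphofructokinase that commits sugar to glycolysis, gave 157.1, 177.5 and 161.0 CPM in WT on days 7, 10 and 14 and 122.2, 140.7 and 141.4 CPM in Il21r-/-. The WT libraries were all above the Il21r-/- libraries. The log2 fold change was 0.30 in both fits (SE 0.10, edgeR adjusted p = 0.13 with linear day, SE 0.0797 and 0.00668 with day as a block). *Pfkp* was the main phosphofructokinase of these cells, with 70.8% to 76.5% of the RPKM summed over its family, while *Pfkl* had 21.4% to 26.1% and *Pfkm* 2.18% to 3.55%. *Pfkl* (log2 fold change 0.17, SE 0.13) and *Pfkm* (0.24, SE 0.22) did not pass the test.

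*Tpi1*, which interconverts the triose phosphates, gave 420.5, 489.3 and 495.7 CPM in WT and 352.0, 383.6 and 400.8 CPM in Il21r-/- on days 7, 10 and 14. Here too the groups did not overlap, and the day 7 WT library was the lowest of its group. The level was 1.24-fold higher in WT (log2 fold change 0.31, SE 0.0936, edgeR adjusted p = 0.101 with linear day, and 0.30, SE 0.0726, 0.00238 with day as a block). *Aldoc*, the minor aldolase, went the other way, with 22.1, 17.2 and 17.6 CPM in WT and 26.8, 21.6 and 21.9 CPM in Il21r-/-. It was higher in Il21r-/- on each day, but the day 7 WT library lay within the Il21r-/- range. Its log2 fold change was -0.31 in both fits (SE 0.13, edgeR adjusted p = 0.211 with linear day, SE 0.11 and 0.0387 with day as a block). The main aldolase gene, *Aldoa*, which held 96.2% to 97.6% of the aldolase RPKM, gave 681.8 to 772.6 CPM in WT and 679.9 to 730.6 CPM in Il21r-/- and did not pass the test (log2 fold change 0.05, SE 0.0978). *Gpi1*, which turns glucose 6-phosphate into its fructose isomer (-0.10, SE 0.0994), and *Pfkfb3*, which makes the activator of phosphofructokinase (-0.17, SE 0.12), did not pass either.

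**Figure D3:**
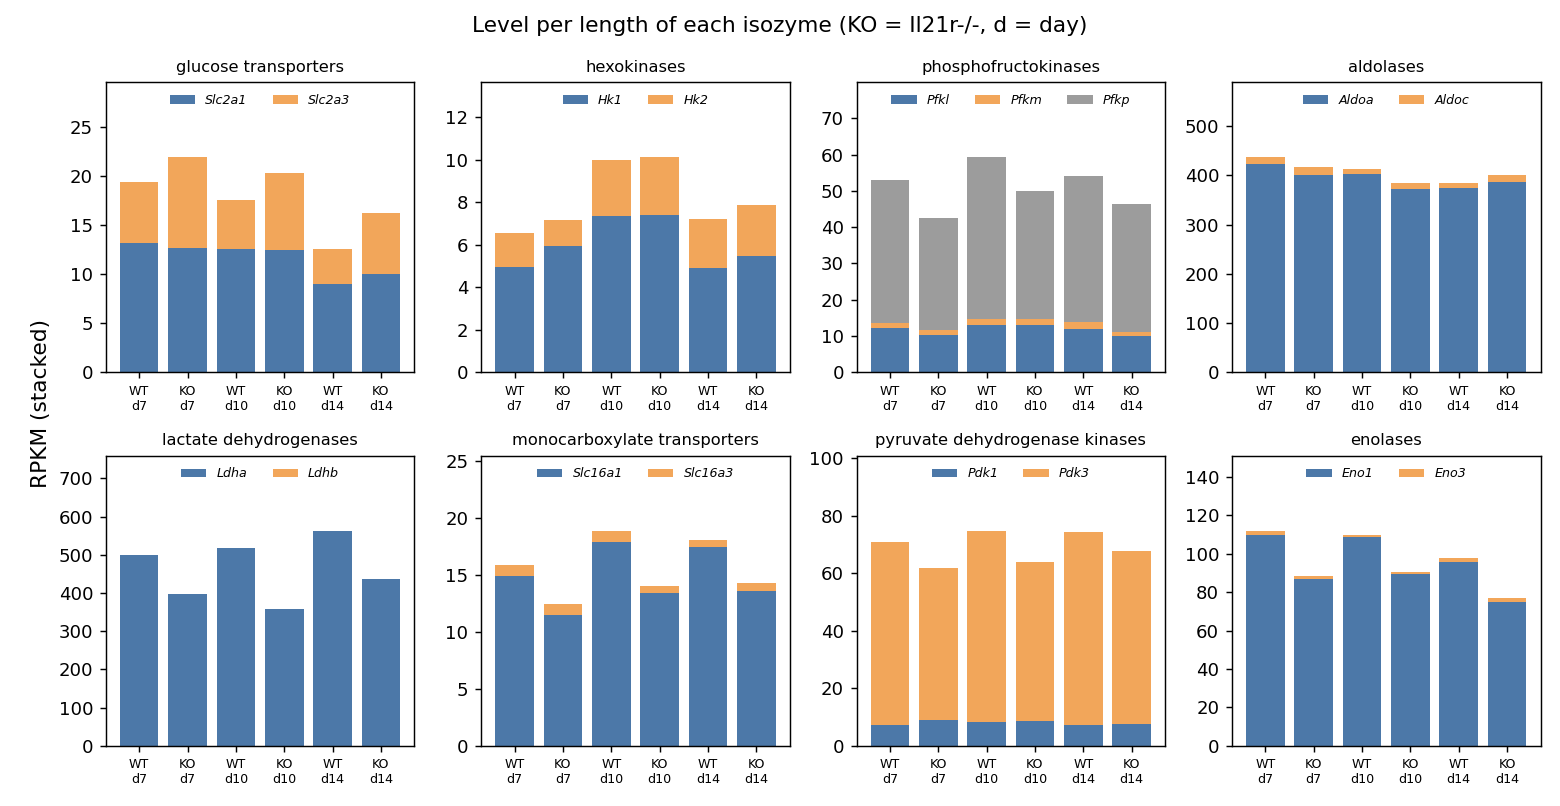
RPKM (y axis, from 0) of the isozymes of 8 steps, stacked per library, with KO for Il21r-/- and d for day. 1 gene holds at least 68.2% of each bar except in the glucose transporters, where *Slc2a3* takes 38.2% to 42% of the Il21r-/- bars and 28.2% to 31.8% of the WT bars.

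In the lower chain, from triose phosphate to pyruvate, all 6 members had positive log2 fold changes (0.04 to 0.34 with linear day, median 0.25), 3 were called with day as a block, all higher in WT, and none with linear day (2 at an unadjusted p under 0.05). *Pgam1*, the phosphoglycerate mutase, gave 462.1, 488.4 and 467.1 CPM in WT on days 7, 10 and 14 and 377.7, 382.6 and 401.7 CPM in Il21r-/-. The libraries of each genotype lay close together and the groups were well apart. The log2 fold change was 0.29 in both fits (SE 0.0915, edgeR adjusted p = 0.113 with linear day, SE 0.0729 and 0.00411 with day as a block).

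*Eno1*, the enolase that makes phosphoenolpyruvate, gave 195.2, 192.7 and 170.3 CPM in WT and 154.1, 158.6 and 133.1 CPM in Il21r-/- on the same days. Day 14 was lowest in both genotypes, and still the lowest WT library lay above the highest Il21r-/- library. The log2 fold change was 0.32 (SE 0.0926, edgeR adjusted p = 0.0814) with linear day and 0.33 (SE 0.0781, 0.00251) with day as a block. *Pkm*, the pyruvate kinase, gave 920.6, 975.7 and 932.8 CPM in WT and 765.3, 839.6 and 845.1 CPM in Il21r-/-, with no overlap. Its difference was the smallest of those called (log2 fold change 0.21 in both fits, SE 0.10 and adjusted p = 0.275 with linear day, SE 0.0736 and 0.0385 with day as a block, edgeR). *Pgk1*, which yields the first ATP of the chain, gave 370.8 to 437.9 CPM in WT and 345.4 to 422.1 CPM in Il21r-/- (log2 fold change 0.04, SE 0.11), and *Eno3*, the muscle enolase, 2.07 to 2.78 and 2.17 to 2.77 CPM (0.05, SE 0.22). Neither passed the test.

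Counts of this stretch have to be read with the copies of these genes in the genome. *Gapdh*, usually among the most abundant transcripts of a cell, had 27 to 65 counts per library (1.18 to 2.38 CPM). In its longest annotated protein-coding transcript, 78% of the 100-base windows also occurred in 84 other genes. Of these, 4 were in the count table, and *Gapdh-ps15*, a processed copy on the Y chromosome, alone held 15187 to 22734 counts per library, so that *Gapdh* had 0.15% to 0.301% of the summed counts. The sum of all 5 gave 883.6, 847.8 and 751.6 CPM in WT on days 7, 10 and 14 and 785.1, 772.9 and 703.7 CPM in Il21r-/-. WT was higher on each day, but the groups overlapped, and the sum did not pass the test in either fit (log2 fold change 0.13, SE 0.0962, edgeR adjusted p = 0.472 with linear day, SE 0.0728 and 0.201 with day as a block). *Eno1* shared 59% of its windows and held 25.3% to 26.6% of the counts summed with *Eno1b*, a near-identical copy. That sum was 770.9, 757.2 and 654.5 CPM in WT and 580.4, 601.0 and 519.0 CPM in Il21r-/- (log2 fold change 0.36 in both fits, SE 0.0985 and adjusted p = 0.0728 with linear day, SE 0.0726 and 0.000463 with day as a block, edgeR). Windows were also shared by *Pgk1* (67%), *Pgam1* (39.7%), *Pkm* (9.82%), *Bnip3* (9.41%), *Ldhb* (8.8%) and *Gpi1* (4.92%), and their levels are uncertain by an amount that these shares do not give, while *Slc2a3*, *Pfkp*, *Aldoc*, *Slc16a1*, *Pdk3*, *Egln1* and *Pgd* shared none.

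**Figure D4:**
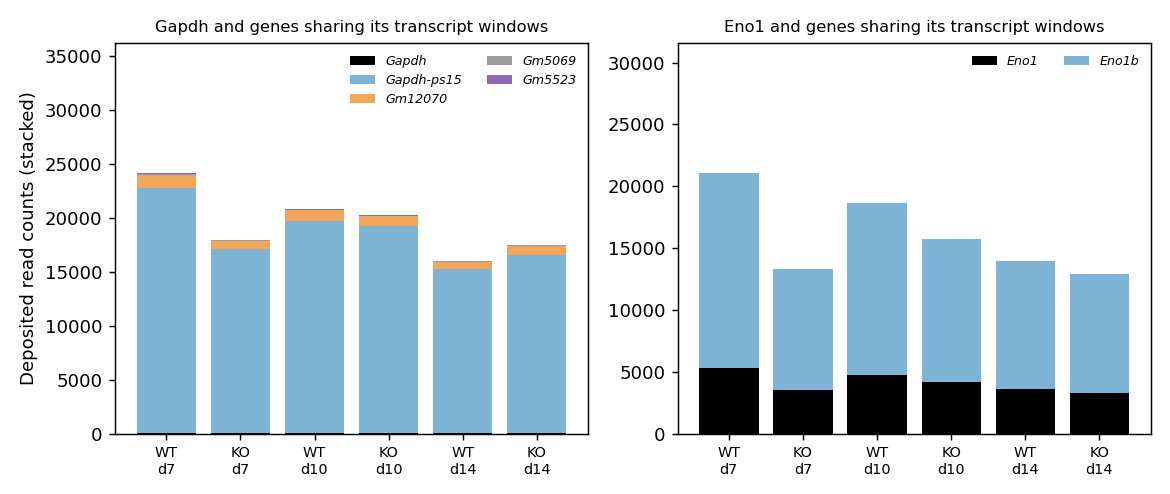
Deposited read counts (y axis, from 0) of *Gapdh* and *Eno1* stacked with the table's genes that share their 100-base transcript windows, per library, with KO for Il21r-/- and d for day. *Gapdh-ps15* makes up nearly the whole *Gapdh* bar, and *Eno1* 25.3% to 26.6% of its own.

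Lactate production and export gave the largest differences in favour of WT, with 2 of the 3 members tested called with day as a block and none with linear day (2 at an unadjusted p under 0.05). *Ldha*, whose product reduces pyruvate to lactate, gave 965.0, 998.6 and 1084.7 CPM in WT on days 7, 10 and 14 and 764.6, 691.6 and 843.9 CPM in Il21r-/-. The *Ldha* start shown above carries a pair of E-box letters, and another annotated start of the gene carries none. The 3 WT libraries were all above the 3 Il21r-/- libraries, and the day 10 Il21r-/- library was the lowest. The level was 1.33-fold higher in WT (log2 fold change 0.41 in both fits, SE 0.11 and adjusted p = 0.0621 with linear day, SE 0.0747 and 0.00013 with day as a block, edgeR). *Ldha* supplied essentially all lactate dehydrogenase reads, *Ldhb* at most 0.00824% of the RPKM of the pair.

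*Slc16a1*, which encodes the lactate and pyruvate carrier MCT1, gave 66.1, 79 and 77.3 CPM in WT and 50.8, 59.2 and 60.1 CPM in Il21r-/-. Day 7 was the lowest day in both genotypes and the groups did not overlap. The level was 1.31-fold higher in WT (log2 fold change 0.39 in both fits, SE 0.10 and adjusted p = 0.0613 with linear day, SE 0.0853 and 0.00112 with day as a block, edgeR). *Slc16a3*, for the carrier MCT4 of strongly glycolytic tissues, stayed at 1.4 to 2.44 CPM and did not pass the test (0.09, SE 0.24), so that *Slc16a1* held 92.4% to 97% of the RPKM of the pair. With day as a block, *Ldha* and *Slc16a1* were called without each library in turn, with edgeR adjusted p of 0.00212 to 0.0107 and 0.00987 to 0.0329. Each such run drops the genotype comparison of a whole day, so the 2 runs of a day are not separate checks.

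Pyruvate dehydrogenase kinases phosphorylate pyruvate dehydrogenase and so keep pyruvate out of the mitochondrial cycle. *Pdk3* gave 127.7, 133.1 and 134.9 CPM in WT on days 7, 10 and 14 and 105.5, 110.9 and 120.6 CPM in Il21r-/-. The groups did not overlap, and the gap was narrowest on day 14. Its log2 fold change was 0.23 in both fits (SE 0.0883, edgeR adjusted p = 0.172 with linear day, SE 0.0804 and 0.0337 with day as a block). *Pdk1*, a standard HIF target, gave 36.6 to 42 CPM in WT and 38.1 to 45.8 CPM in Il21r-/- and did not pass the test (-0.15, SE 0.11). *Pdk3* made up 89.1% to 90.4% of the RPKM of the pair in WT and 85.6% to 89% in Il21r-/-.

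Of the 3 members of the HIF pathway that were tested, 2 were higher in WT with day as a block and none passed with linear day (1 at an unadjusted p under 0.05). *Hif1a*, the oxygen-regulated subunit of HIF-1, gave 158.8, 156.7 and 134.0 CPM in WT on days 7, 10 and 14 and 133.6, 124.4 and 105.3 CPM in Il21r-/-. Both genotypes were lowest on day 14, and the lowest WT library lay just above the highest Il21r-/- library. The log2 fold change was 0.31 in both fits (SE 0.0901, edgeR adjusted p = 0.0856 with linear day, SE 0.0795 and 0.00449 with day as a block). *Egln1*, which encodes the prolyl hydroxylase PHD2 that marks HIF for destruction when oxygen is present, gave 27.5, 27.6 and 22 CPM in WT and 20.9, 23.8 and 18.1 CPM in Il21r-/-. WT was higher on each day, but the day 14 WT library lay below the day 10 Il21r-/- library. Its log2 fold change was 0.29 (SE 0.13, edgeR adjusted p = 0.238) with linear day and 0.30 (SE 0.11, 0.0436) with day as a block. *Bnip3*, a mitophagy gene induced by HIF, gave 5.24 to 7.77 CPM in WT and 5.75 to 8.55 CPM in Il21r-/- and did not pass the test (-0.18, SE 0.18).

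In the pentose phosphate pathway 1 of 5 members was called with day as a block and none with linear day (1 at an unadjusted p under 0.05). *Pgd*, the second NADPH-producing dehydrogenase of the oxidative branch, gave 330.9, 338.2 and 294.0 CPM in WT on days 7, 10 and 14 and 274.0, 279.2 and 254.9 CPM in Il21r-/-. The groups did not overlap and day 14 was lowest in both. Its log2 fold change was 0.25 in both fits (SE 0.0922, edgeR adjusted p = 0.16 with linear day, SE 0.0739 and 0.0124 with day as a block). *Tkt*, the transketolase that links the pathway back to glycolysis, gave 535.7 to 582.4 CPM in WT and 462.8 to 510.0 CPM in Il21r-/-, without overlap, and missed the threshold in both fits (0.19, SE 0.0961, edgeR adjusted p = 0.292 with linear day and 0.0518 with day as a block). *G6pdx*, which encodes the entry dehydrogenase (0.11, SE 0.10), *Taldo1*, the transaldolase (-0.01, SE 0.11), and *Rpia*, the ribose isomerase (-0.07, SE 0.0945), overlapped between the genotypes and did not pass.

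Summed over genes, the 15 enzymes from the hexokinases to *Pkm* took 0.397%, 0.418% and 0.39% of all counts in WT on days 7, 10 and 14 and 0.34%, 0.369% and 0.349% in Il21r-/-. With *Eno1b* and *Gapdh-ps15* added, the sums were 0.537%, 0.558% and 0.51% against 0.452%, 0.489% and 0.449%. The 5 pentose phosphate enzymes took 0.154%, 0.157% and 0.142% in WT and 0.135%, 0.14% and 0.128% in Il21r-/-. Each glycolytic sum was higher in all 3 WT libraries than in any Il21r-/- library, and so was the pentose phosphate sum, by a narrow margin between the day 14 WT and the day 10 Il21r-/- library.

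**Figure D5:**
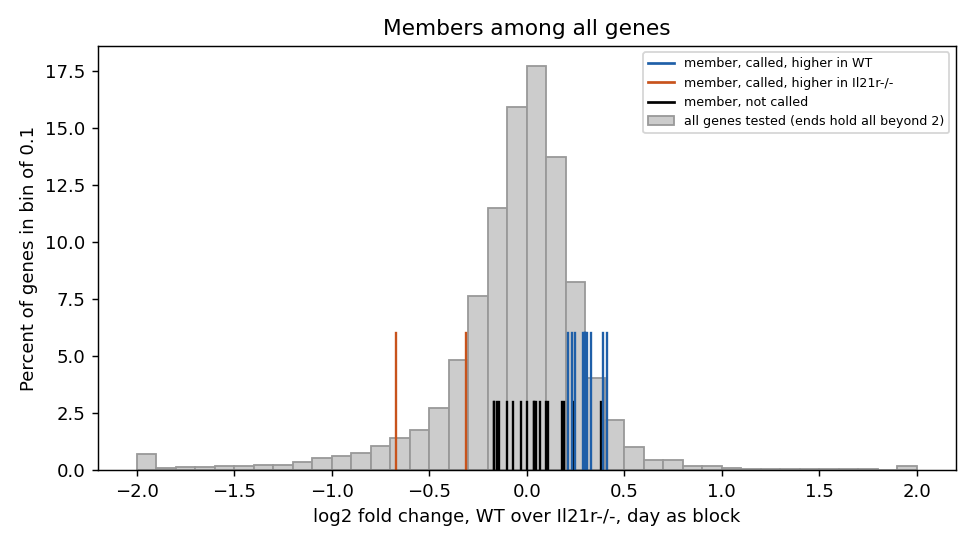
Histogram of the log2 fold change of WT over Il21r-/- with day as a block (x axis) over the 11005 genes tested, as percent of genes per bin of 0.1 (y axis), with the 31 members as vertical lines, taller and coloured where called. The 11 members called higher in WT lie between 0.21 and 0.41, on the right shoulder of the distribution, and *Slc2a3* lies at -0.67 on the left.

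Within single days, with 1 library per genotype, the likelihood ratio test of edgeR called 0 of 31 members on day 7 (1.07% of all genes), 0 on day 10 (3.10%) and 1 on day 14 (3.28%, 2.55% higher in Il21r-/-). At an unadjusted p under 0.05 there were 1, 3 and 2 members on these days (3.23%, 9.68% and 6.45%), against 5.51%, 10.8% and 12.1% of all genes. The Wald test of DESeq2 called 0 on each of the 3 days. The member called on day 14 was *Slc2a3* (log2 fold change -0.78, SE 0.24, edgeR adjusted p = 0.0365), whose values on days 7 and 10 were -0.58 (SE 0.23) and -0.65 (SE 0.23). This call was lost without the day 7 WT or the day 10 WT library, which gave 0 called members each. On day 10 *Ldha* had a log2 fold change of 0.53 (SE 0.20, edgeR adjusted p = 0.178), against 0.34 and 0.36 (SE 0.20 each) on days 7 and 14.

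Across the days *Slc2a3* was the one member with a trend in the fit with linear day (1 of 31, against 4.43% of all genes, 3.36% falling; 4 members, 12.9%, at an unadjusted p under 0.05, against 23.5%). It fell by 0.10 per day on the log2 scale over both genotypes (SE 0.0191, edgeR adjusted p = 0.0315), and day 14 was its lowest day in both. Without the day 10 Il21r-/- library 5 members were called, *Slc2a3* among them, when 2177 of all genes were. Without each of the other libraries in turn no member was called, when 0 to 402 of all genes were. No member differed between the genotypes in its trend (0 of 31, against 0% of all genes, 0 at an unadjusted p under 0.05, and 0 by DESeq2). For *Slc2a3* the difference in slope was -0.03 per day (SE 0.0432).

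Other genes of the same pathways, 78 on a fixed list of which 52 were tested, had a median log2 fold change of -0.07. With linear day 4 were called (7.69%), all higher in Il21r-/-, against 5.92% of all genes in either direction and 4.52% higher in Il21r-/-. With day as a block 14 were called (26.9%, near the 22.9% of all genes). Of the 52, 3 were called higher in WT, against 9.33% of all genes, and 11 higher in Il21r-/-, against 13.6% of all genes. *Slc2a6*, which encodes a lysosomal hexose transporter, gave 14, 12.8 and 9.79 CPM in WT on days 7, 10 and 14 and 32, 37.5 and 36.5 CPM in Il21r-/-. All 3 Il21r-/- libraries were far above WT (log2 fold change -1.54, SE 0.15, edgeR adjusted p = 0.00114 with linear day and 4.79e-10 with day as a block).

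*Ddit4*, the stress- and hypoxia-induced inhibitor of mTORC1, gave 50.7, 26.5 and 38.6 CPM in WT and 76.9, 63.6 and 92.1 CPM in Il21r-/-, again without overlap (log2 fold change -1.01, SE 0.23, edgeR adjusted p = 0.0391 with linear day and 3.54e-05 with day as a block). *Prps2*, which makes phosphoribosyl pyrophosphate for nucleotides, gave 348.4, 282.2 and 261.8 CPM in WT and 420.9, 401.6 and 365.9 CPM in Il21r-/- (log2 fold change -0.42, SE 0.10, edgeR adjusted p = 0.0394 and 9.2e-05). *Pgk2*, the testis-type phosphoglycerate kinase, was called on 4 to 17 counts per WT library and 34 to 49 per Il21r-/- library (log2 fold change -2.25, SE 0.40, edgeR adjusted p = 0.0112 with linear day and 1.89e-05 with day as a block). With day as a block the others called higher in Il21r-/- were *Pfkfb4*, *Slc2a9*, *Hif3a*, *Bnip3l*, *Adm*, *Ndrg1* and *Bhlhe40*, and those higher in WT were *Minpp1*, *Ankrd37* and *Narf*. Of the 17 HIF pathway and target genes of this list that were tested, 6 were called higher in Il21r-/- (13.6% of all genes) and 2 in WT (9.33% of all genes) with day as a block. Of the 10 tested for pyruvate entry to the mitochondria, edgeR called 0 in both fits (5.92% and 22.9% of all genes), with 0 and 1 at an unadjusted p under 0.05 (21.4% and 33.6% of all genes). Across days, *Prps1* was called rising and *Pfkfb4*, *Slc16a6* and *Bhlhe40* falling.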

How the data were processed

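Messenger RNA was sequenced (TruSeq RNA, single-end, 100 bp) in 6 libraries, 1 per genotype and day. The authors aligned reads to mm10 with Rsubread and made the deposited whole-number read counts per Entrez gene with featureCounts and its inbuilt RefSeq annotation, with technical replicates pooled and base calls from CASAVA 1.8.2 per the labels. Strand and multi-mapping settings are not given in the sources used here. Total counts were 21353438 to 27435124 per library. Gene symbols came from RefSeq and GENCODE tables; IDs without a symbol took 1.57% to 2.24% of counts.

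From the deposited counts, CPM and RPKM (with the deposited gene lengths) were computed on library sizes scaled by TMM, with edgeR 4.0.16 in R 4.3.3. Y-chromosome genes, *Xist* and immunoglobulin variable genes (337 in all) were left out of the tests, so *Gapdh-ps15* was not tested, and genes under an average log2 CPM of 0 were filtered, which left 11005. Genotype over 3 days and the day trend were tested with glmQLFit and glmQLFTest (genotype plus linear day), single days with likelihood ratio tests and a mean per day, on dispersions from all 6 libraries (common dispersion 0.017), with Benjamini-Hochberg adjustment over all genes tested and a threshold of 0.05. Positive fold changes mean higher in WT. Deviations of same-day libraries from their genotype means correlated across 11005 genes (r = 0.64, 0.413 and 0.645 for days 7, 10 and 14, a description of these libraries). These deviations include any linear day trend, which the linear fit already models, so r does not show pairing beyond that trend. The fit with day as a block is given beside the linear one. The scripts were tested on simulated counts. Alternatives were DESeq2 1.42.0 (size factors, Wald test), both filters, the left-out genes kept, other day terms and each library left out. After the values were seen, alternatives of the blocked fit and sums over near-identical copies were added.

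The members, the 78 further pathway genes and the cell type markers were chosen with earlier results of these data known. Members called in any comparison were named singly with their 6 values, the others in ranges. Promoter windows came from RefSeq (GRCm38.p6). Windows of 100 bases were taken from the longest annotated protein-coding transcript of each member. A window counted as shared when it occurred in an annotated transcript of another gene.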

Additional observations from a re-analysis of the deposited data

How the results depend on the processing

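The direction of each of the 13 members named singly was kept under every alternative run. Of their 182 values with linear day, 150 kept their side of the threshold, 30 passed only under the alternative and 2 (*Slc2a3* without either day 14 library) no longer passed. Of 169 values with day as a block, 123 kept their side and 46 no longer passed. Those of *Slc2a3*, *Ldha* and *Slc16a1* held without each library in turn, and those of *Aldoc*, *Pkm*, *Pdk3*, *Egln1* and *Pgd* were lost without any 1 library. In the blocked fit a run without 1 library drops the genotype comparison of its day. Runs without either library of the same day are therefore near repeats.

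The count of members called by genotype over 3 days, 1 with linear day, was 13 with day as a replicate block (paired by day), 3 with all genes of any count, 4 by the likelihood ratio test, 5 by the Wald test of DESeq2, and 0 to 10 without 1 library. All genes called numbered 651 with linear day, 2519 with the block and 991 with all genes of any count. They numbered 1193 by the likelihood ratio test, 951 by DESeq2 and 132 to 2165 without 1 library. The blocked count of 13 ranged from 5 to 7 without 1 library and from 11 to 14 otherwise. All genes called with the block numbered 1015 to 2172 without 1 library and 1786 to 2809 otherwise. On day 10 the count of 0 became 1 with the linear day term kept and 2 with dispersions from the paired fit. All genes called on day 10 rose from 341 to 722 and 822 in these settings. On day 14 the count of 1 became 0 with all genes of any count, with the left-out genes kept and by DESeq2, and was 0 to 1 without 1 library. All genes called on day 14 numbered 361 in the main fit and 350, 294 and 94 in the first 3 of these settings. For the day trend the count of 1 became 2 with all genes of any count, by the likelihood ratio test and by DESeq2, 6 with day 14 set against day 7, and 0 to 5 without 1 library. All genes called for the trend numbered 488 in the main fit and 869, 1186, 870 and 2880 in these settings. They numbered 0 to 2177 without 1 library. Beyond these changes in the member counts, the block changed no call of a member. Counts for day 7 and for the difference in trend stayed 0 in every setting run. The causes were not tested. With 1 library per genotype and day, differences within a day rest on dispersions borrowed from the other days, and levels of genes under 1 CPM rest on few counts.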
